A study of Mus musculus with 2 samples.

Results

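The protocadherins are the largest group of cadherins, cell-surface proteins that bind partners of the same kind on neighbouring cells. In vertebrates most of them are encoded in the tandem alpha, beta and gamma arrays, in which every gene has its own promoter and a large first exon, and from which each neuron switches on a small, largely random set that serves as a surface identity. The non-clustered protocadherins, scattered over the genome, include the delta-1 and delta-2 subfamilies, which act in axon growth, cell sorting and synapse formation, and several of which are silenced in tumors. All genes whose symbol begins with Pcdh were taken, which gave 69 genes of the 32285 in the files. They comprised 14 alpha, 22 beta, 21 gamma and 12 non-clustered genes, under 68 different symbols, because Pcdha11 is listed under 2 identifiers.

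The cells were GL261, an established mouse glioma line of C57BL/6 origin whose label reads astrocytoma, and scRNA-Seq was performed on 1 adherent and 1 neurosphere library. Adherent cells were kept in DMEM with fetal bovine serum. Neurospheres, free-floating aggregates, had EGF and FGF at 20 ng/ml each and B-27 at 1:50 added to the medium and were harvested after 12 days. Adherent cells were detached with trypsin, whereas neurospheres were, per the labels, put in trypsin and then broken up by pipetting, and both were frozen before the 10x Genomics 3′ library preparation. Culture and dissociation thus differed together. After the filters, 5051 adherent cells with 46290996 UMIs (unique molecular identifiers, each counting 1 captured transcript) and 4276 neurosphere cells with 64943938 UMIs remained, with medians of 8260 and 13198.5 UMIs per cell, and 9 kept barcodes occurred in both libraries. Of the astrocyte markers Sox9 and Aqp4 had no UMI in either library, Gfap had 30 and 27 UMIs, S100b had 160.7 and 254.6 CPM (counts per 1000000 UMIs on the genes left), and Slc1a3 had 370.4 and 80.5 CPM. The 7 astrocyte markers summed to 535.5 and 341.0 CPM. Oligodendrocyte lineage markers had summed levels of 774.9 CPM (adherent) and 2557 CPM (neurosphere), and 5 of 8 were over 2-fold higher in neurospheres (21.7% of all genes were), 1 was over 2-fold lower (Mbp; 11.7% of all genes were) and none was at 0. Neuron markers summed to 51.6 and 236.4 CPM, with Map2 at 25.2 and 186.4 CPM, Syt1 at 6.61 and 18.5 CPM and Snap25 at 0 in both. Of the other neuron markers Tubb3 had 19.7 and 31.5 CPM, Stmn2 had 3 and 2 UMIs and Rbfox3 had 1 and 1. Of 7 measured dissociation stress genes Egr1 was over 2-fold higher in neurospheres (36.8 and 136.9 CPM), and Atf3 (58.3 and 26.1 CPM) and Dusp1 (54.0 and 25.4 CPM) were over 2-fold lower. With 1 library per culture there is no replicate check on any difference below, no test was run, and the 95% intervals cover counting error only.

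The protocadherins held 5173 UMIs in adherent cells (111.7 CPM, 95% interval 108.7 to 114.8) and 50060 UMIs in neurosphere cells (770.8 CPM, 764.1 to 777.6). This was 6.90-fold more in neurospheres, or 2.79 on the log2 scale. The difference was made up by a few large non-clustered genes and, at much lower counts, by the beta array, while the gamma sum had no direction that held across scalings and alpha transcripts were close to undetected. The non-clustered genes gave 85.1% of the family's UMIs in adherent cells and 95.01% in neurospheres. The gamma share of the family's UMIs went from 11.4% to 1.64% and the beta share from 3.50% to 3.33%. These are shares of UMIs that were not divided by gene length.

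Of the 69 genes, 24 had at least 50 UMIs over both libraries. Of these 19 were over 2-fold higher in neurospheres, where 21.7% of the 14654 genes at that minimum were, and 3 were over 2-fold lower, where 11.7% of all genes were. Of the 19, only Pcdh10, Pcdh17, Pcdh7, Pcdh15 and Pcdh9 had 50 UMIs in adherent cells alone. The others met the minimum only with their neurosphere counts, and Pcdh1, a lower gene, only with its adherent counts. The count of 19 therefore depends on the minimum. The genes lower in neurospheres were Pcdh18, Pcdh1 and Pcdhgc3, and Pcdhgc4 and Pcdhgc5 lay between the limits. The median log2 fold change was 2.17 over the 24 genes (median of their own values) and 0.32 over all 14654 genes, and the latter moved to 0.11 under TMM scaling and to 0.54 when mitochondrial and ribosomal genes stayed in the total. Of the 45 members under 50 UMIs, 13 had no UMI in either library, 30 had a higher CPM in neurospheres and 2 a lower one, where 52.8% of the 8995 genes with 1 to 49 UMIs had a higher CPM. The 30 were 3 alpha, 11 beta, 15 gamma and 1 non-clustered gene, and the 2 were non-clustered. These counts rest on 50 adherent and 357 neurosphere UMIs, for some genes on a single UMI, and the neurosphere library was the deeper one.

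**Figure D1:**
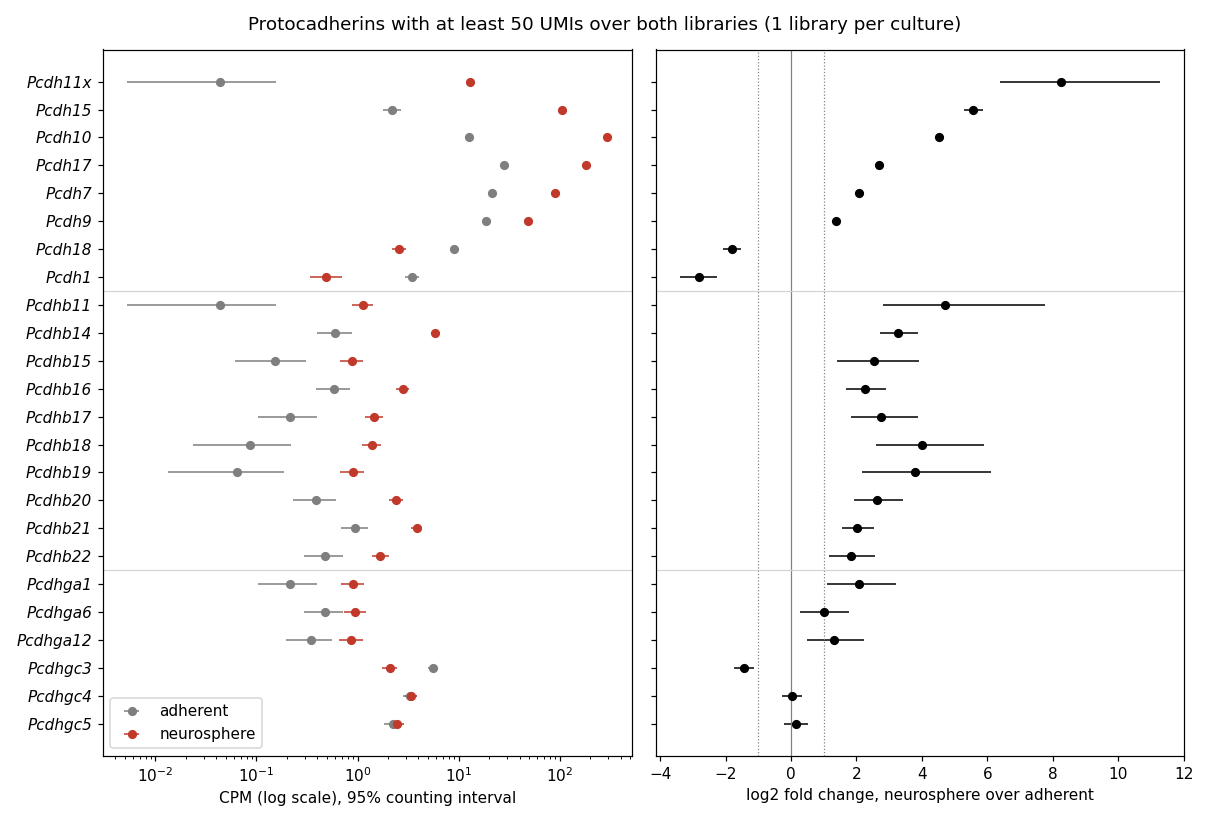
CPM (left, log scale, adherent in grey and neurosphere in red) and log2 fold change (right, dotted lines at 2-fold) of the 24 protocadherins with at least 50 UMIs, each point 1 library or 1 ratio with its 95% counting interval. The 6 non-clustered genes at the top and all 10 beta genes lie right of the upper 2-fold line, while Pcdh18, Pcdh1 and Pcdhgc3 lie left of the lower one.

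The delta-2 genes did not move as a block. Their sum went from 49.6 to 475.7 CPM (9.59-fold), and yet the subfamily held both a strongly higher and a lower gene on the same chromosome. Pcdh10, a delta-2 protocadherin that recruits the WAVE actin regulators through Nckap1, lies at chr3:45378398-45435623 on the plus strand of GRCm38. Pcdh18, which binds the adaptor Dab1, lies at chr3:49743296-49757325 on the minus strand. Pcdh17, known for its part in the assembly of presynaptic terminals, lies at chr14:84443563-84539002 on the plus strand. The RefSeq promoter windows of these members are shown because they move in opposite directions, with that of Pcdh15, the tip-link protocadherin described further on. Each gives the 250 bases upstream of the RefSeq start on GRCm38.p6, read 5′ to 3′ on the strand of the gene, and capitals mark the GC box GGGCGG or its reverse complement CCGCCC.
Pcdh10, chr3:45378148-45378397, plus strand: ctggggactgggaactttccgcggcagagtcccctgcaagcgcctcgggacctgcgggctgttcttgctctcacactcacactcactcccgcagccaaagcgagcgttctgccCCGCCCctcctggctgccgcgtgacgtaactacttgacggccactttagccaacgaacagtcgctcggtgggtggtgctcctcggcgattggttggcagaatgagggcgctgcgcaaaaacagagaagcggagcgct
Pcdh18, chr3:49757317-49757566, minus strand: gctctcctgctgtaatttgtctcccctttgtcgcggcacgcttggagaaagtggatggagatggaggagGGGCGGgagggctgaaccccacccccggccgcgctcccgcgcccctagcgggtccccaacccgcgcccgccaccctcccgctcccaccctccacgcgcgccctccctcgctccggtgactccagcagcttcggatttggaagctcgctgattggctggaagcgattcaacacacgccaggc
Pcdh17, chr14:84443313-84443562, plus strand: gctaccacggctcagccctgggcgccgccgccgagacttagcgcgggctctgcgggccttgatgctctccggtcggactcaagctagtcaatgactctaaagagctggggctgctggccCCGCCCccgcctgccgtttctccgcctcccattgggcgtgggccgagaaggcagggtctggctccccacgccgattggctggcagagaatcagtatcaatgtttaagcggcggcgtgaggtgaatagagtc
Pcdh15, chr10:73821617-73821866, plus strand: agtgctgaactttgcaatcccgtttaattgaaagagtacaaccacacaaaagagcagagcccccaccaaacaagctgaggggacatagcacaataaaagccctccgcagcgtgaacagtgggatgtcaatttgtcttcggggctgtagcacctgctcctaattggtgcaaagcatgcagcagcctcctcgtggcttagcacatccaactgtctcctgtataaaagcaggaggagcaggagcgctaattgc

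Pcdh10, Pcdh17 and Pcdh18 each held 1 GC box in these windows, a motif found on either strand in 32.7% of 32851 mouse promoter windows of the same length. They held 22, 21 and 23 CpG dinucleotides, against a median of 6 over all windows. Thus the higher Pcdh10 and Pcdh17 and the lower Pcdh18 had similar windows by these measures. The Pcdh15 window held no GC box, 6 CpG and 1 match to TATAAA, which 12.4% of windows held, and the RefSeq start used lies inside the GENCODE gene body rather than at its first base. Windows were found for 9 of the 12 non-clustered genes, and a match of letters is a description only.

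Pcdh10 had 584 UMIs in adherent cells (12.6 CPM) and 19010 in neurospheres (292.7 CPM). The log2 fold change was 4.54 (interval 4.42 to 4.66), or 23.2-fold. At full depth 10.3% of adherent cells had a Pcdh10 UMI and 90.5% of neurosphere cells did, and with every cell thinned to 5000 UMIs in 6.07% and 72.5%. Up to 42 Pcdh10 UMIs were counted in a single neurosphere cell and at most 3 in an adherent cell. Pcdh10 alone accounted for 38.0% of the family's UMIs in neurospheres against 11.3% in adherent cells.

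Pcdh17 had 1287 adherent UMIs (27.8 CPM) and 11715 neurosphere UMIs (180.4 CPM). Its log2 fold change was 2.70 (2.62 to 2.78), and its share of thinned cells went from 12.3% to 54.3%. It held 24.9% of the family's UMIs in adherent cells and 23.4% in neurospheres, so that its share of the family hardly moved while its level was 6.49-fold higher. Pcdh18 went the other way, from 418 UMIs (9.03 CPM) in adherent cells to 168 UMIs (2.59 CPM) in neurospheres. Its log2 fold change was -1.80 (-2.07 to -1.54), and it was found in 4.39% and 1.19% of thinned cells. Its partner Dab1 had 4 and 6 UMIs. Pcdh19, an X-linked gene whose loss causes an epilepsy in girls and women, had 6 adherent UMIs and 0 in neurospheres. It was 2.81-fold lower in neurospheres when 0 is set to a floor of 3 UMIs, while the exact interval of the counts reached a log2 fold change of -0.72. Pcdh8, an activity-regulated synaptic protocadherin, had 0 and 2 UMIs.

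The delta-1 genes, whose cytoplasmic tails carry conserved motifs that include a binding site for protein phosphatase 1, went from 43.3 CPM in the adherent to 151.5 CPM in the neurosphere library as a sum. Pcdh7 (chr5:57717967-58133230) had 979 adherent UMIs (21.2 CPM) and 5830 neurosphere UMIs (89.8 CPM), a log2 fold change of 2.09 (1.99 to 2.19). Pcdh9 (chr14:93013410-93890679) had 862 adherent UMIs (18.6 CPM) and 3129 neurosphere UMIs (48.2 CPM), a log2 fold change of 1.37 (1.26 to 1.48). Both were thus higher in neurospheres, and the log2 fold change of Pcdh9 was 0.96 once the trend of fold change with gene length was removed and 1.87 with thinned cells. Whether reads in introns were counted is not given in the sources used here, and counts of genes with long introns, such as Pcdh9 and Pcdh15, may include them. Pcdh1, a protocadherin of epithelia, was lower, with 160 UMIs (3.46 CPM) in adherent cells and 32 UMIs (0.49 CPM) in neurospheres. This was 7.01-fold lower (log2 fold change -2.81, -3.41 to -2.26).

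Pcdh11x (chrX:120290259-120910619) had the highest ratio of the family. It had 2 UMIs in adherent cells, both in the same cell (0.0432 CPM, interval 0.00523 to 0.156), and 849 UMIs in neurospheres (13.1 CPM, 12.2 to 13.98). The log2 fold change was 8.24, with a counting interval of 6.38 to 11.29 that rests on the 2 adherent UMIs. The intervals treat UMIs as independent, although the 849 neurosphere UMIs lay in only 291 cells. They do not cover the spread between cells. The gene was nearly silent in the adherent library and clearly present in the neurosphere library, in 6.81% of its cells at full depth and 3.86% of thinned cells.

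Pcdh15 (chr10:73099342-74649737), which pairs with Cdh23 in the tip links of hair cells and is also transcribed in oligodendrocyte precursors, had 102 adherent UMIs (2.20 CPM) and 6826 neurosphere UMIs (105.1 CPM). The log2 fold change was 5.58 (5.29 to 5.87), or 47.7-fold, and the share of thinned cells with a UMI went from 1.05% to 34.8%. Its gene body spans 1550 kb of GRCm38, with 23.8 kb of exons, and overlaps the same-strand gene Gm15397, so that some reads could belong to either. Its tip-link partner was not higher: Cdh23 had 30 adherent and 23 neurosphere UMIs (0.648 and 0.354 CPM). Among 5 of 10 listed tip-link genes with at least 50 UMIs none was over 2-fold higher and 1 was lower, Tmie, a channel subunit of hair cells, with 54 and 9 UMIs (log2 fold change -3.07), which over so few genes is near the 21.7% and 11.7% of all genes. Under the minimum, Tmc1, a channel gene, had 4 and 27 UMIs and Ush1c, a scaffold gene of hair cells, had 21 and 1. Among the remaining non-clustered genes, Pcdh12, an endothelial protocadherin, had 3 and 0 UMIs, and Pcdh20 had none. Of 4 endothelial markers Kdr and Cdh5 were at 0 in adherent cells, with 2 and 0 UMIs in neurospheres, Cldn5 had 1 and 0, and Pecam1 had 61 and 208 UMIs (log2 fold change 1.28).

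The large genes higher in neurospheres were not spread over cells in the same manner. For each gene the share of cells with a UMI at full depth was set beside the share that would follow if its UMIs were spread over cells in proportion to their depth. Pcdh10 was seen in 90.5% of neurosphere cells against 95.2% by proportional spread, and Pcdh17 in 81.3% against 87.4%. Pcdh15 was seen in 55.0% against 73.4%, Pcdh7 in 56.4% against 68.5% and Pcdh9 in 30.03% against 48.5%. Pcdh11x was seen in 6.81% of cells against 17.5%, the lowest ratio of seen to proportional share among these genes (0.388), and the 5% of cells with the most Pcdh11x UMIs held 90.9% of them. Those cells carried up to 30 Pcdh11x UMIs each, and 46 cells held 5 or more. In contrast, the top 5% of cells held 18.1% of Pcdh10 UMIs, 20.8% of Pcdh17 UMIs, 27.6% of Pcdh15 UMIs and 48.9% of Pcdh9 UMIs. These shares also depend on how many UMIs a gene has. Pcdhb14, the most counted beta gene, was seen in 8.23% of cells against 8.40% by proportional spread.

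**Figure D2:**
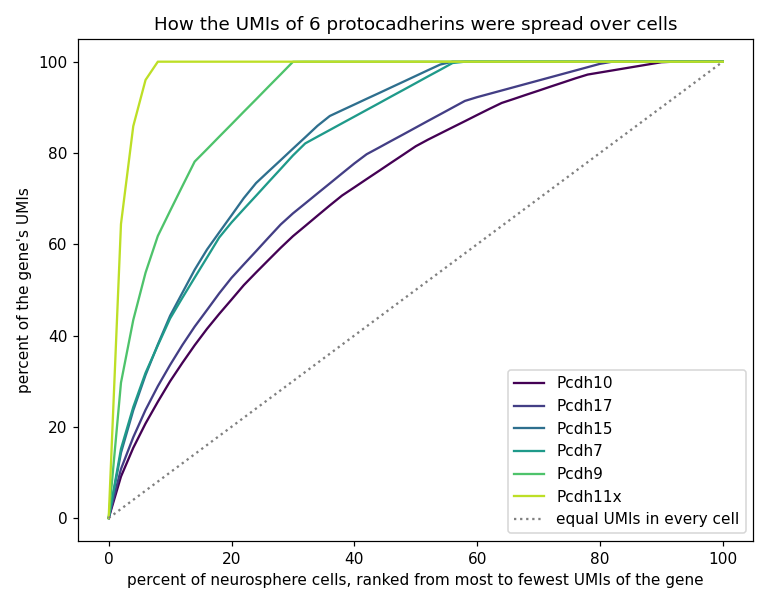
Cumulative percent of a gene's UMIs (vertical axis) over neurosphere cells ranked from most to fewest UMIs of that gene (horizontal axis, percent of cells), with 1 line per gene and a dotted line for equal UMIs in every cell. The Pcdh11x line climbs to 90.9% of UMIs within the first 5% of cells, while the Pcdh10 line reaches 18.1% there.

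Levels within the neurosphere library were compared over 11 cell clusters, computed without the protocadherins. They are named by number and leading genes, and values are descriptions of 1 library. Pcdh10 ran from 154.6 CPM in cluster 5 (led by Lpcat2, Hmga2 and Reln) to 511.6 CPM in cluster 0 (led by Pdzd2, Comp and Mucl2), a 3.31-fold range. Pcdh17 had the narrowest range of the 6 leading genes, from 107.1 to 262 CPM, or 2.45-fold. Pcdh9 had the widest, from 12.7 CPM in cluster 9 (led by Tmem171, Igkc and Krt8) to 153 CPM in cluster 7 (whose leading genes include Mbp and Lsamp), or 12.1-fold. Pcdh7 was also highest in cluster 7 (194.7 CPM), where Pcdh15 reached 183.7 CPM, next to its highest value of 200.1 CPM in cluster 0. Pcdh11x was low in cluster 7 (5.51 CPM) and highest in cluster 0 (26.2 CPM), with 25.5 CPM in cluster 8. Its 11.8-fold range, from 2.22 CPM in cluster 6 (7 UMIs), was close to that of Pcdh9. At resolution 0.8 the Pcdh11x range was 4.89-fold and the Pcdh9 range 12.3-fold. Pcdh9 was also high in cluster 0 (124.1 CPM) but had 27.2 CPM in cluster 8. Both genes were thus high in cluster 0 and differed in others such as clusters 7 and 8, although both had a UMI in a limited share of cells.

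The beta genes together ran from 12.7 CPM in cluster 5 to 66.5 CPM in cluster 0, with 59.5 CPM in cluster 10 (led by Ccl2 and Hmox1) and 54.6 CPM in cluster 6 (led by Enpp2 and Col2a1). The gamma sum had a smaller range, from 7.52 CPM in cluster 9 to 21.4 CPM in cluster 8, which was led by Chit1, S100a6 and the interferon-induced Cxcl10, Rsad2 and Ifit3 and also had the highest Pcdhgc3 (5.56 CPM, 19 UMIs). At resolution 0.8 the highest gamma sum lay in the cluster led by Pdzd2 (21.0 CPM), with 19.5 CPM in that led by Cxcl10. Depth moved with these levels. Cluster 0 had a median of 7727 UMIs per cell, and clusters 5 and 9, where the non-clustered sums were lowest at 446.5 and 439.3 CPM, had medians of 20779 and 20702. The part of depth in the order of clusters was not tested.

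**Figure D3:**
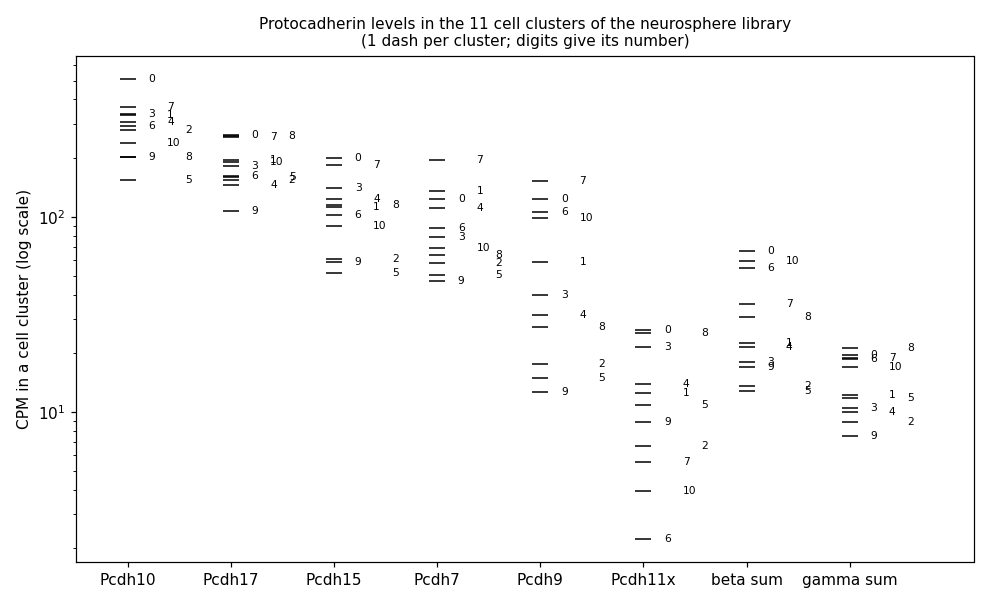
CPM (log scale) of 6 non-clustered genes and of the beta and gamma sums in the 11 neurosphere clusters, with 1 dash per cluster and its number beside it. Cluster 0 is highest for Pcdh10 (511.6 CPM), Pcdh15, Pcdh11x and the beta sum, and cluster 7 for Pcdh7 and Pcdh9 (153 CPM).

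In the adherent library the same genes were low in 9 of 10 clusters. The non-clustered sum ran from 42.9 CPM in cluster 4 to 133.6 CPM in cluster 6, apart from cluster 9. That cluster had 46 cells with a median of only 2623.5 UMIs, was led by Lars2, Neat1 and Sgcz, and reached 906 CPM from 114 UMIs. It held 57 of the 862 adherent Pcdh9 UMIs (453 CPM) and 30 of the 979 Pcdh7 UMIs (238.4 CPM). Outside this small, shallow cluster no adherent cluster reached 50 CPM of any of the 6 genes.

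The beta genes, each encoded by a single exon with no constant part, had the largest summed difference of the arrays that could be measured. Their sum was 181 UMIs in adherent cells (3.91 CPM, 3.36 to 4.52) and 1669 UMIs in neurospheres (25.7 CPM, 24.5 to 26.96), 6.57-fold higher or 2.72 on the log2 scale (2.49 to 2.95). Of 22 beta genes 21 had a higher CPM in neurospheres, where 59.9% of all genes with a UMI did, but for sparse ones such as Pcdhb3 (3 and 8 UMIs) and Pcdhb7 (6 and 20 UMIs) the interval included no difference. Pcdhb1, at the head of the array, had no UMI in either library. All 10 with at least 50 UMIs were over 2-fold higher (21.7% of all genes at that minimum were), with log2 fold changes from 1.82 to 4.70. None of the 10 had 50 UMIs in adherent cells alone (at most 44, for Pcdhb21). They met the minimum only with their neurosphere counts, so this count is a description and no independent support. A beta UMI was found in 2.08% of thinned adherent cells and 13.4% of thinned neurosphere cells.

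Counts were not even along the array, which is divided here at Pcdhb14, a point chosen with the counts known. Pcdhb14 to Pcdhb22, at its far end, held 163 of the 181 adherent and 1378 of the 1669 neurosphere UMIs. Pcdhb14 had 28 adherent UMIs and 380 in neurospheres, a log2 fold change of 3.27 (2.72 to 3.88), and it alone gave 22.8% of the neurosphere beta UMIs. Pcdhb21 had 44 and 251 UMIs, with a log2 fold change of 2.02 (1.56 to 2.52). Its gene body overlaps that of Pcdhb22 (22 and 109 UMIs), the only overlapping beta genes. Reads in the overlap could belong to either gene and may have been left uncounted. Between Pcdhb14 and Pcdhb21 lie genes with fewer counts. Pcdhb15 had 7 and 57 UMIs (log2 fold change 2.54), Pcdhb16 had 27 and 182 (2.26, and 3.07 with thinned cells) and Pcdhb17 had 10 and 95 (2.76). Pcdhb18 had 4 and 90 UMIs (4.003, 2.60 to 5.91), Pcdhb19 had 3 and 58 (3.79) and Pcdhb20 had 18 and 156 (2.63). Among Pcdhb14 to Pcdhb22 the log2 fold change was thus lowest for Pcdhb22 (1.82) and highest for Pcdhb18.

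In the first part of the array, Pcdhb1 to Pcdhb13 together had 18 adherent and 291 neurosphere UMIs, a log2 fold change of 3.53 (2.84 to 4.30) against 2.59 (2.36 to 2.83) for Pcdhb14 to Pcdhb22. As the division was chosen with the counts known, these values are a description. Pcdhb9 and Pcdhb10 had no adherent UMI and 34 and 46 in neurospheres, and Pcdhb11 had 2 and 73 UMIs (log2 fold change 4.70, 2.80 to 7.77). Pcdhb13, next to Pcdhb14, had 0 and 2 UMIs, so a nearly silent gene lay beside the most counted one.

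**Figure D4:**
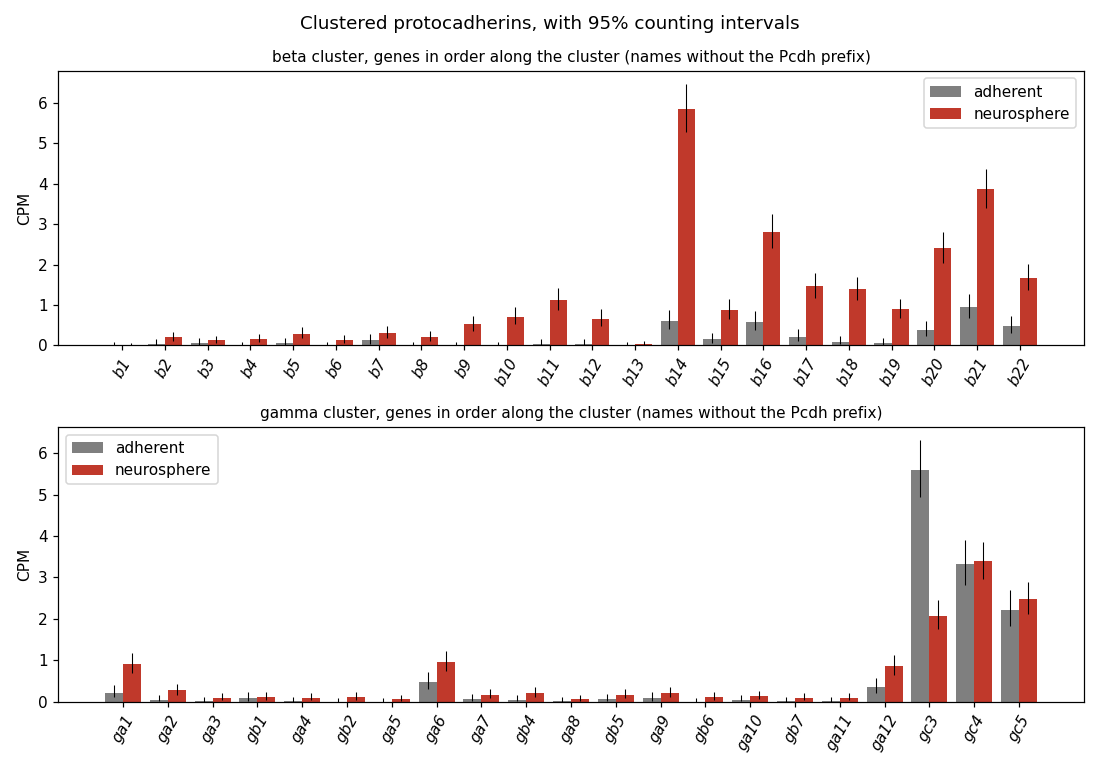
CPM of the 22 beta (top) and 21 gamma genes (bottom) in array order, with adherent in grey, neurosphere in red and 95% counting intervals as bars. The tallest neurosphere bars of the beta array are Pcdhb14 and Pcdhb21 (380 and 251 UMIs), whereas in the gamma array only the C-type genes at the end reach 2 CPM.

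The gamma sum was near equal under the main scaling, with 589 adherent UMIs (12.7 CPM, 11.7 to 13.8) and 822 neurosphere UMIs (12.7 CPM, 11.8 to 13.5), a log2 fold change of -0.01 (-0.16 to 0.15). It was -0.22 under TMM scaling, 0.21 with mitochondrial and ribosomal genes in the total and 0.57 without Pcdhgc3, so no direction is given for it. Its parts had values of opposite sign. The 12 A-type genes went from 63 to 254 UMIs (log2 fold change 1.52, 1.12 to 1.94) and the 6 B-type genes from 10 to 52 UMIs (1.89, 0.90 to 3.03), and all 18 had a higher CPM in neurospheres (59.9% of all genes with a UMI did), though only 3 of them reached 50 UMIs and the interval of others, such as Pcdhgb1 (4 and 7 UMIs), included no difference. The 3 C-type genes had 516 UMIs in either library, which at the greater neurosphere depth was 11.2 CPM against 7.94 CPM (log2 fold change -0.49, -0.67 to -0.31).

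Among the A-type genes Pcdhga1 had 10 and 59 UMIs (log2 fold change 2.07, and 2.96 with thinned cells), Pcdhga12 had 16 and 56 (1.32) and Pcdhga6 had 22 and 62 (1.01). The value for Pcdhga6 stood at the 2-fold limit, was 0.78 with the length trend removed and had an interval of 0.28 to 1.78. Of the C-type genes, which in neurons are expressed without random choice, Pcdhgc3 was lower in neurospheres, from 259 UMIs (5.60 CPM) to 135 UMIs (2.08 CPM), a log2 fold change of -1.43 (-1.74 to -1.12). Pcdhgc4 had 154 and 220 UMIs (log2 fold change 0.03, -0.28 to 0.33) and Pcdhgc5 had 103 and 161 UMIs (0.16, -0.21 to 0.53), and both signs turned under TMM scaling. Pcdhgc3 thus held 44.0% of gamma UMIs in adherent cells and 16.4% in neurospheres. All 21 gamma genes share their last exons and overlap each other in the GENCODE annotation, where a median of 44.6% of a gene's exon length is shared. Since a 3′ library reads mostly the end of a transcript, the count of a single gamma or alpha gene is uncertain and shared reads may have been left uncounted.

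The alpha array was close to undetected. No alpha UMI was found in adherent cells, and in neurospheres there were 8, of Pcdha1 (4 UMIs), Pcdha11 under the identifier ENSMUSG00000102206 (3) and Pcdha8 (1). At a floor of 3 UMIs for adherent cells the sum was 1.90-fold higher in neurospheres. This ratio rests on 8 UMIs and was -0.07 on the log2 scale without Pcdha1. The exact interval of 0 against 8 UMIs began at a log2 fold change of 0.28, and that of the floored ratio (-1.13 to 3.48) included no difference. The UMIs lay in 7 of 4276 cells (0.164%, exact interval 0.0658 to 0.337%). Shared alpha exons made up a median of 53.4% of exon length, so reads in the constant exons may be missing from these sums and absence of alpha transcripts cannot be read from them.

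Few single cells showed more than 1 clustered protocadherin, and their share depended on depth. With cells thinned to 5000 UMIs (587 adherent and 80 neurosphere cells were too shallow and left out), the mean number of clustered genes with a UMI was 0.0809 per adherent and 0.224 per neurosphere cell, a 2.77-fold difference. Without thinning the means were 0.149 and 0.557. At least 2 clustered genes were seen in 16 of 4464 thinned adherent cells (0.358%) and 116 of 4196 thinned neurosphere cells (2.76%), with a maximum of 2 and 4 genes. At full depth 1.13% of adherent and 11.72% of neurosphere cells had at least 2. For non-clustered genes the thinned means were 0.435 and 2.17 genes per cell, and 69.3% of thinned neurosphere cells had at least 2 of them against 7.21% of adherent cells. Combinations of non-clustered protocadherins were thus common in neurosphere cells, whereas most cells had no clustered gene with a UMI. These were 92.3% of adherent and 80.9% of neurosphere cells when thinned, and 86.3% and 60.15% at full depth. The clustered genes summed to only 16.6 and 38.5 CPM, against 95.1 and 732.3 CPM for the non-clustered genes. How many clustered genes a cell transcribes can therefore not be read from these counts.

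Under the main scaling the regulators of the clustered arrays all lay under the 2-fold limit. CTCF and cohesin fold the arrays so that enhancers reach the chosen promoters, and Smchd1, Setdb1 and Dnmt3b keep the others silent. All 14 listed chromatin regulators had at least 50 UMIs and a higher CPM in neurospheres (59.9% of all genes with a UMI did). Their median log2 fold change was 0.48 beside 0.32 over all genes, where 21.7% were over 2-fold higher and 11.7% over 2-fold lower. Other scalings were not run for this list. The shift of the all-gene median to 0.11 under TMM scaling would put Ctcf, Smc3 and Smc1a below 0. That to 0.54 with mitochondrial and ribosomal genes in the total would put Stag1 and Nipbl over the limit. Ctcf went from 78.2 to 88.4 CPM (log2 fold change 0.18), and Smchd1 had 124.0 and 145.0 CPM (0.23). Stag1, a cohesin subunit, came nearest to the limit, with 67.8 and 133.6 CPM (0.98), followed by the cohesin loader Nipbl (222.4 and 409.1 CPM, 0.88) and the cohesin release factor Wapl (42.7 and 69.1 CPM, 0.69).

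Among 16 measured binding partners and effectors 3 were over 2-fold higher and none lower, with a median of 0.44, near the 21.7% and the median of 0.32 over all genes. Wasf1, a WAVE complex subunit, went from 12.7 to 78.9 CPM (log2 fold change 2.63), and Cyfip2, another subunit, from 8.75 to 23.0 CPM (1.40). Nckap1, through which Pcdh10 reaches this complex, had 84.8 and 98.5 CPM (0.22), and the related subunits Wasf2 (-0.41) and Cyfip1 (-0.16) lay below 0. The third gene was Ctnnb1, which encodes beta-catenin, at 31.8 and 75.1 CPM (1.24). Of 8 measured proteases 2 were over 2-fold higher, again near the 21.7% of all genes. These were Adam10, which sheds protocadherin ectodomains (29.5 and 66.7 CPM, log2 fold change 1.18), and Ncstn, a gamma-secretase subunit (25.9 and 59.9 CPM, 1.21).

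Of the large Fat, Dchs and Celsr cadherins, 3 of 9 listed genes had at least 50 UMIs and all were over 2-fold higher in neurospheres, where 21.7% of all genes were. Under the minimum, Celsr1 had 23 and 12 UMIs, Celsr3 had 16 and 14 and Fat3 had 4 and 36. Fat1, a large atypical cadherin, went from 22.6 to 118.9 CPM (log2 fold change 2.40). Dchs1, which binds Fat4 in planar cell polarity, had 35 and 183 UMIs (1.90), while Fat4 itself had 0 and 1. Celsr2 had 66 and 218 UMIs (1.24). Oligodendrocyte lineage and neuron markers were also higher in neurospheres as sums (774.9 and 2557 CPM, and 51.6 and 236.4 CPM). Map2 made up most of the neuron sum in neurospheres (186.4 CPM), and Snap25, Stmn2 and Rbfox3 were at or near 0 in both libraries. The astrocyte sum was lower (535.5 and 341.0 CPM) through Slc1a3, with S100b and Aldh1l1 (3.63 and 5.39 CPM) higher and a list median of -0.04 on the log2 scale. The part of these and of the stress genes in the protocadherin differences was not tested, and the culture, its growth factors and the library cannot be told apart.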

How the data were processed

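GL261 cells of 1 adherent and 1 neurosphere library were analysed. The authors deposited raw UMI counts per gene and called cell (5764 and 4951 cells, 32285 genes), made with Cell Ranger 7.0.1 on mm10 according to the submitters' processing notes. The setting for intronic reads is not given in the sources used here. Following the study's methods, 13 mitochondrial and 101 ribosomal genes were removed, then cells under 1000 UMIs or under 1250 (adherent) or 2250 (neurosphere) genes. The study states slightly more kept cells than these limits left here. UMIs were summed per library and divided by the total on the genes left (CPM). A gene was called by size at 2-fold with at least 50 UMIs over both libraries. Intervals were exact at 95% (Poisson for CPM, binomial for shares and conditional for log2 fold changes) and cover counting error only. Without replicates no test was run, and edgeR was used for TMM factors only. A library at 0 was set to a floor of 3 UMIs. Shares of cells were given at full depth or, where said, with cells thinned to 5000 UMIs. As both libraries hold a single cell line, no cell type lacking these genes could serve as a background for shares of cells. No doublets were removed, no caller was run here, and cells over the 95th percentile of UMIs were left out as an alternative.

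Clusters were computed per library in Seurat 5.3.0 (2000 variable genes without protocadherins, 17 and 18 PCs, resolution 1). Gene spans and exons came from GENCODE on GRCm38 (32235 of 32285 identifiers matched) and promoter sequences from RefSeq on GRCm38.p6. Python 3.11.15, scipy 1.17.1, statsmodels 0.14.6, R 4.3.3 and edgeR 4.0.16 were used. The members and gene lists were chosen with earlier results of these data known. Every protocadherin was accounted for, those with at least 50 UMIs were given values, and of the partner lists genes at least 2-fold apart and Ctcf, Smchd1, Adam10 and Cdh23 were named (a further gene of this rule is not reported here), with others (such as Stag1, Nipbl, Wapl, Nckap1, Dab1, Tmc1, Ush1c, Fat3, Celsr1, Celsr3, Wasf2, Cyfip1 and Fat4) named after their values were seen. The interval calculation was tested on simulated data. Alternatives were other scalings, cell filters, thinning, count minimums, removal of the length trend, sums without the most counted member and cluster resolution 0.8.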

Additional observations from a re-analysis of the deposited data

How the results depend on the processing

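Of 24 protocadherins with at least 50 UMIs, 20 kept their sign and their side of the 2-fold limit under every alternative that gave a value, and the exceptions were Pcdh9 (0.96 with the length trend removed, 1.87 with thinned cells), Pcdhga6 (0.78, length trend removed), Pcdhgc4 (-0.19) and Pcdhgc5 (-0.06, both TMM scaling). The log2 fold change of the gamma sum (-0.01) was -0.22 under TMM scaling, 0.21 with mitochondrial and ribosomal genes in the total, 0.24 with thinned cells and 0.57 without Pcdhgc3. That of the non-clustered sum (2.94) was 2.73, 3.16 and 3.10 under the first 3 of these and 2.41 without Pcdh10. The beta sum stayed between 2.50 and 2.94. The alpha ratio at the floor (0.93) stayed between 0.53 and 1.15, except -0.07 without Pcdha1, and had no value with thinned cells. Protocadherins over 2-fold higher numbered 17 to 19 of 24 (19 in the report), 25 of 30 at a minimum of 20 UMIs and 9 of 13 at 200 UMIs, and those lower 2 or 3. Thinning moved Pcdhga1 from 2.07 to 2.96 and Pcdhb16 from 2.26 to 3.07. The ratio of clustered genes per cell (2.77) was 3.73 without thinning, and the range of Pcdh10 over neurosphere clusters (3.31-fold) was 3.55-fold at resolution 0.8. The scalings shift all genes together, and for the other changes the cause was not tested. No paired analysis was possible because each culture has 1 library, and for the same reason no replicate could be left out. Depth limits the alpha genes and the 45 genes under 50 UMIs, and nothing here separates the culture from its library.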
